A study of Mus musculus with 28 samples.

Results

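The comparison described here set 5 mice carrying a villin-PPARD transgene against 5 wild-type littermates, all killed at 10 weeks of age, and covered every gene counted. These 10 libraries were picked by genotype and age, not by a measured value, from 28 libraries in all. The comparison itself was chosen with earlier results of these data known. The rest are 18 libraries of the same genotypes at 25 weeks (4 mice per genotype) and 55 weeks (5 per genotype). Each library held polyadenylated RNA of the gastric corpus epithelium of 1 mouse, taken by scraping, and no other gene alteration or treatment is named for either group. The transgene is PPARD under the villin promoter, which is used mainly to drive genes in intestinal epithelium. The labels do not say which corpus cells it reaches. Counting per gene symbol does not separate transgene reads from reads of the mouse's own Ppard.

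PPARD (peroxisome proliferator-activated receptor delta) is a nuclear receptor that binds fatty acids and related lipids, pairs with a retinoid X receptor and turns on genes of fatty acid uptake, storage and oxidation. The gastric corpus is the acid-secreting part of the stomach. Its glands hold parietal cells that make acid, chief cells that make pepsinogen, mucous neck cells and hormone cells, and its surface is lined by mucus-making pit cells. Interferons are cytokines that act through receptor-bound kinases and STAT and IRF transcription factors to turn on antiviral genes, many of which carry an interferon-stimulated response element in the promoter.

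At 10 weeks the villin-PPARD corpus held much higher levels of interferon-induced genes. Of the 66 genes called at least 16-fold higher (0.417% of the 15812 tested), 38 belong to 9 lists of antiviral and antigen-presentation genes. Those lists hold 142 of the genes tested and were chosen with earlier results of these data known. No interferon gene itself passed the test. Antigen-presentation genes of MHC class I, the cytokine receptor genes Il22ra1 and Osmr, the Duox oxidases, growth factor genes of the EGF family and genes of mitosis were higher. Many parietal, chief and hormone cell genes and nearly all nuclear genes of complex I and ATP synthase tested were lower, mostly by less than 2-fold. Mitochondrially encoded genes fell further, with 11 of 14 called lower and a median log2 difference of −1.67. Lipid genes that PPAR receptors are known to control moved in both directions.

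Total counts lay between 13558430 and 24768203 in wild-type and between 17237529 and 23503643 in villin-PPARD libraries. The first principal component of log2 CPM held 61.7% of the variance and separated the genotypes. Levels are given as CPM, after TMM adjustment of the library totals. Mitochondrially encoded genes took 4.81 to 11.9% of wild-type and 1.57 to 4.82% of villin-PPARD counts (two-sided exact permutation p = 0.0159, adjusted p = 0.0265 over the 5 library measures tested). The highest villin-PPARD library (4.82%) lay just above the lowest wild-type library (4.81%). The column names carry 2 library groups, the first with replicates 1 to 3 of each genotype and the second with replicates 4 and 5, and the labels do not say what they stand for. Wild-type replicates 2 and 3 stood apart from the rest by likeness, with a chi-square of 4.26 per degree of freedom between them against 17.3 to 87.8 for the other 19 pairs within a genotype. They were counted as 2 mice here. Wild-type replicate 1 stood apart in another way, with the highest wild-type level of many interferon-induced genes. The edgeR p-values rest on a spread between mice estimated over all 28 libraries of the 3 ages. The permutation p-values rest on these 5 libraries per genotype alone. In such bulk samples fewer cells of a type and less RNA per cell cannot be told apart.

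Ppard, examined first as the gene that the transgene carries (chromosome 17, 28232700 to 28301474, GRCm38), measured 83.6, 66.1, 65.7, 74.6 and 80.6 CPM in wild-type libraries and 125, 112, 101, 108 and 102 CPM in villin-PPARD libraries, in the order of replicates 1 to 5 used throughout. All 5 villin-PPARD libraries lay above all 5 wild-type libraries. The mean went from 74.1 ± 8.18 to 109.5 ± 9.56 CPM (SD, n = 5). The log2 difference was 0.56 ± 0.09 (SE; edgeR quasi-likelihood test, Benjamini-Hochberg adjusted p = 2.548e-05 over 15812 genes), with 0.64 in the first library group and 0.43 in the second. Vil1, whose own promoter drives the transgene and which encodes a brush-border protein, was 3.85-fold higher, at 38.4, 26.9, 28.1, 42.1 and 48.97 CPM in wild-type libraries and 156, 119.8, 110.2, 164 and 159.5 CPM in villin-PPARD libraries. Its groups did not overlap either, and whether transgene sequence adds reads to Vil1 was not tested.

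Of 15812 genes with enough counts, 5380 were called at an adjusted p under 0.05, which is 34.0% of those tested. Of these, 2823 (17.9%) were higher and 2557 (16.2%) lower in villin-PPARD mice. Small changes made up most of the calls, since 2779 of them (51.7%) were under 1.5-fold. The wide changes were mostly rises: 213 genes (1.35%) were called at least 4-fold higher and 45 (0.285%) at least 4-fold lower, and from 16-fold the counts were 66 (0.417%) and 3 (0.0190%). At 2-fold they were 574 (3.63%) and 492 (3.11%). The libraries of the 2 genotypes did not overlap for 4049 genes (25.6%), of which 3738 were called. A further 1642 called genes had overlapping libraries. With wild-type replicates 2 and 3 summed to 1 library, 4490 genes were called. The median log2 difference over all genes tested was −0.03, and list medians below are to be read beside it. Counts of list members that rose or fell are to be read beside the 17.9% and 16.2% of all genes tested.

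**Figure D1:**
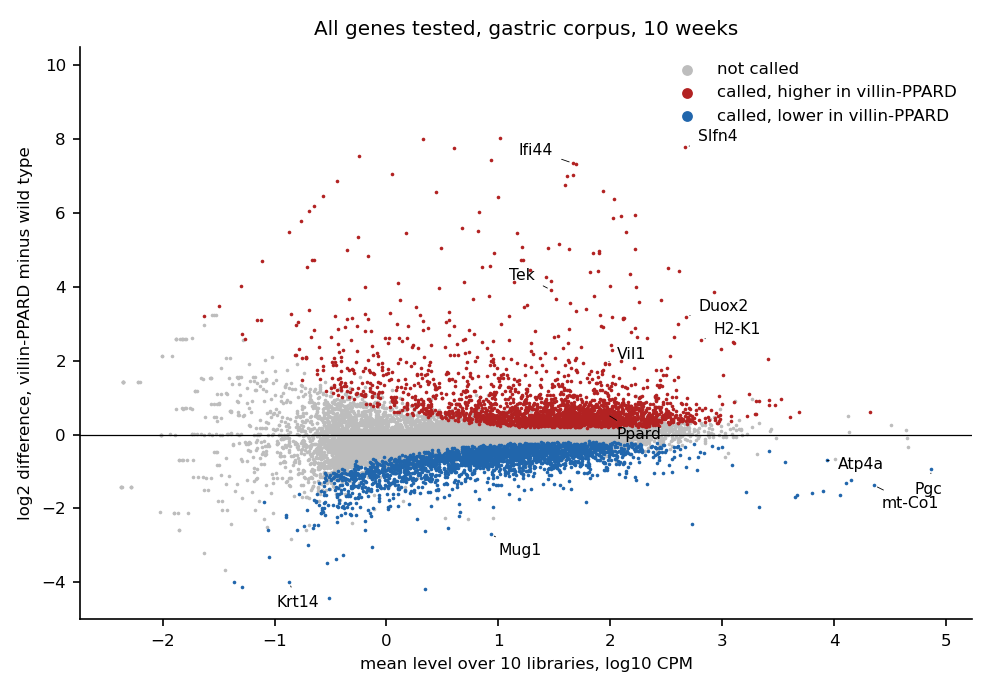
Log2 difference between villin-PPARD and wild type at 10 weeks (5 against 5 mice) for each tested gene with a count in the 10 libraries, against its mean level in log10 CPM. Red genes were called higher and blue genes lower at an adjusted p under 0.05, grey genes were not called, and the red points above 4 have no counterpart of like number below −4.

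The interferon pathway was followed from ligand to target. Of 21 interferon genes in the count table, 18 had 0 counts in all 10 libraries, which allows up to 0.0310 CPM over the 5 wild-type and 0.0313 CPM over the 5 villin-PPARD libraries (3 counts per group). Ifnb1, the interferon beta gene, was among the 18. Counts of this kind could miss interferons made briefly or by few cells. Ifne, an interferon of epithelia, was the only one with enough counts to test. It was chosen here after its values were seen, with 52 counts in wild-type and 68 in villin-PPARD libraries and a log2 difference of 0.35 that did not pass the test.

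Genes of interferon signalling rose among receptors, transcription factors and inhibitors. Of 6 interferon receptor genes Ifnlr1, Ifngr1 and Ifngr2 rose. Ifngr1 and Ifngr2, the chains for interferon gamma, were at log2 differences of 0.62 and 0.32, and Ifngr2 lost its call in 7 of 21 alternatives. The type I receptor genes Ifnar1 and Ifnar2 and Il10rb, the partner chain of Ifnlr1, were at log2 differences of 0.15, −0.105 and 0.05 and did not pass the test. Ifnlr1, the epithelial receptor chain for type III interferons, measured 35.6, 29.3, 33.6, 34.4 and 35.5 CPM in wild-type libraries and 57.5, 50.5, 43.97, 51.1 and 51.6 CPM in villin-PPARD libraries. The groups did not overlap, although the rise was small (log2 difference 0.60 ± 0.12 SE, adjusted p = 2.854e-04). Stat2, a transcription factor of the type I and III interferon responses, measured 49.03, 43.4, 40.3, 32.1 and 35.2 CPM in wild-type libraries and 335, 308, 227, 296 and 307 CPM in villin-PPARD libraries. Wild-type replicate 1 was the highest and replicate 4 the lowest of its group, and every villin-PPARD library was above 4 times the highest wild-type library. The log2 difference was 2.88 ± 0.14 (SE, edgeR adjusted p = 1.959e-16). Irf8, a member of the IRF family found mainly in immune cells, rose by 0.79 on the log2 scale. Usp18, a protease that removes ISG15 from proteins and damps interferon receptor signalling, was 30.5-fold higher. In the list of interferons, receptors and signalling genes 15 of 23 tested members rose, beside 17.9% of all genes, and 0 fell. The median was 0.42.

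Promoters are shown for 6 of the genes with the widest rises, because 4 of them hold the core letters of the interferon-stimulated response element and 2 others with rises as wide do not. The 6 were picked as examples of both outcomes, so 4 to 2 is not a share. Among other genes with wider rises than Isg15, Slfn2 and Sp100 hold no match and Trim30a holds 1, in the longer window described below. Each is the 150 bases before the start of the gene in RefSeq (GRCm38.p6), printed 5′ to 3′ on the gene's strand, with matches to GAAA, any 2 bases and GAAA in capitals. A match on the opposite strand reads TTTC, any 2 bases and TTTC. Matches that overlap run together.

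Isg15 (chr4:156200819-156200968, minus strand): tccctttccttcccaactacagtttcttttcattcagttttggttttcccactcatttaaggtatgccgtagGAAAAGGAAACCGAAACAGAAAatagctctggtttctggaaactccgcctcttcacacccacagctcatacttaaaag
Ifit1 (chr19:34640739-34640888, plus strand): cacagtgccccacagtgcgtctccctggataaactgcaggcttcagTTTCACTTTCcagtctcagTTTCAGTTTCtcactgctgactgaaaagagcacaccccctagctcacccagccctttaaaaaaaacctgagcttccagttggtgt
Oas3 (chr5:120777660-120777809, minus strand): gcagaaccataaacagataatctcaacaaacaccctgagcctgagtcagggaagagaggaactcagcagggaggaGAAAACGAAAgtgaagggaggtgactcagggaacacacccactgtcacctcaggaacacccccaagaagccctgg
Apol9b (chr15:77728922-77729071, plus strand): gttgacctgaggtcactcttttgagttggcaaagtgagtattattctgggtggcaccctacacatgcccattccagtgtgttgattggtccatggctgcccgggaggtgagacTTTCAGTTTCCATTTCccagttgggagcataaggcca
Slfn4 (chr11:83175036-83175185, plus strand): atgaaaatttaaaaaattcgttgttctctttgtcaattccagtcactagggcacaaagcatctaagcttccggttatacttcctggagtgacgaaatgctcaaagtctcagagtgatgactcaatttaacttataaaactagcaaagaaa
Ifi44 (chr3:151749911-151750060, minus strand): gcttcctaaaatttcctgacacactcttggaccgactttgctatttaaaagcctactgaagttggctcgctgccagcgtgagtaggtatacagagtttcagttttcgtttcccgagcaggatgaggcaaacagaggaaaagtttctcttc

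Isg15 holds 3 overlapping matches, the first at base −78 from the start, and Ifit1 holds 2 that do not overlap, at −104 and −85. Oas3 holds 1, at −75, and Apol9b holds 2 that overlap, at −37 and −31. In windows from 250 bases before to 50 bases after the start, the motif was found in 40 of the 140 genes (28.6%) called at least 4-fold higher that have a promoter entry. It was found in 66 of 375 (17.6%) called at least 2-fold higher and in 13 of 286 (4.55%) called at least 2-fold lower. Over all tested genes with an entry the share was 3.82% (420 of 10997), and over all 27025 promoters it was 3.99%. The core of the gamma-activated site bound by STAT dimers, TTCNNNGAA, was in 13.6%, 13.1% and 8.39% of the same 3 gene sets and in 8.44% of tested genes. Matches to the 2 cores were counted separately, and 1 stretch can hold both. The direct repeat bound by PPAR and retinoid X receptors, AGGTCA, any 1 base and AGGTCA, was in 0 of 140 genes called at least 4-fold higher, 1 of 375 at least 2-fold higher and 0 of 286 at least 2-fold lower, and in 4 of the 10997 tested genes. That exact repeat is rare near starts, and enhancers farther away were not searched. A match describes letters, and no match says only that these letters are not in the window.

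Isg15, a ubiquitin-like protein attached to other proteins, measured 8.87, 3.18, 3.27, 1.88 and 2.18 CPM in wild-type libraries and 286, 238, 172, 257 and 267 CPM in villin-PPARD libraries. Oas3, which makes a nucleotide signal that activates RNA decay, measured 12.2, 4.72, 4.71, 1.77 and 2.02 CPM in wild-type libraries and 382, 306, 273, 324 and 339 CPM in villin-PPARD libraries. Ifit1, which binds foreign RNA ends, measured 9.78, 2.28, 2.04, 1.46 and 1.76 CPM in wild-type libraries and 188, 160.3, 158, 240.4 and 299.9 CPM in villin-PPARD libraries. In all 3 genes wild-type replicate 1 stood above the other wild-type libraries, and still every villin-PPARD library was more than 10 times as high as it. Log2 differences were 5.93 ± 0.35, 5.95 ± 0.37 and 5.85 ± 0.49 (SE; edgeR adjusted p = 1.012e-12, 2.605e-12 and 1.220e-09). Slfn4, whose printed stretch holds no match, measured 4.76, 6.26, 4.96, 2.08 and 2.69 CPM in wild-type libraries and 932, 836, 752, 1143 and 980.2 CPM in villin-PPARD libraries. In relative terms its wild-type libraries spread more than its villin-PPARD libraries.

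Families of antiviral effectors rose at most of their tested members. Of the Oas and Ifit genes 14 of 15 rose, with a median log2 difference of 4.44. Of the Schlafen genes 6 of 6 rose, from 0.65 for Slfn9 and 1.58 for Slfn5 to 7.78 for Slfn4. The rise of Slfn9 did not pass within the first library group. Of the guanylate-binding protein genes 7 of 10 rose, of the immunity-related GTPases and Mx genes 7 of 11, of the Ifi44, Ifi27 and Ifitm genes 17 of 19, of the ISG15 conjugation and PARP genes 14 of 16 and of the Sp100, Pml and Trim genes 15 of 16. Herc3, a ubiquitin ligase gene related to Herc6, was the only member of these 7 families that fell (log2 difference −0.61). Named members include Mx1, a GTPase that blocks viral replication (20.5-fold higher), Irgm1, a GTPase of vacuoles that hold microbes (31.2-fold), and Bst2, which tethers budding virus to the cell (32.5-fold). Reads may be split uncertainly among Oas, Ifit, Slfn, Gbp, Apol9 and H2-Q genes, which are families of near-identical copies.

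Sensors of cytosolic nucleic acid rose with them, at 14 of 26 higher and 0 lower. Ddx58 (RIG-I) and Ifih1 (MDA5), which sense double-stranded RNA, were 21.4-fold and 9.05-fold higher, and Dhx58, which modulates both, 21.1-fold. Zbp1, a sensor of Z-form nucleic acid that can start cell death, measured 2.597, 1.27, 1.99, 1.15 and 1.51 CPM in wild-type libraries and 202, 167, 128, 173 and 179.6 CPM in villin-PPARD libraries. The groups lay far apart, with the 5 wild-type libraries between 1.15 and 2.60 CPM. Adar, which edits double-stranded RNA, was 3.06-fold higher. On the DNA-sensing arm, Mb21d1 (cGAS) rose by 1.04 on the log2 scale, a call not made within the first library group alone, while Tmem173 (STING) was at 0.01 and did not pass the test.

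**Figure D2:**
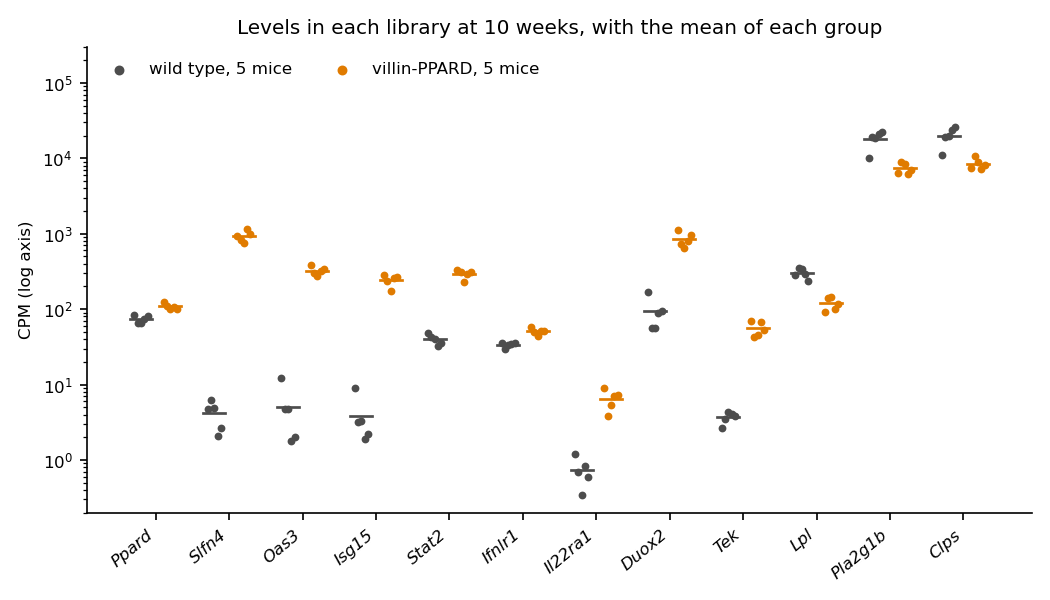
CPM of 12 genes in each of the 10 libraries at 10 weeks, on a log axis, with a bar at the mean of each group of 5 mice. Dots do not overlap between genotypes in any of the 12, and the interferon-induced genes Slfn4, Oas3 and Isg15 show the widest gaps.

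MHC class I genes rose and class II genes mostly did not. B2m, the shared light chain of class I molecules, measured 379.6, 356, 319.8, 303 and 277 CPM in wild-type libraries and 1588, 1426, 1816, 1647 and 1618 CPM in villin-PPARD libraries. The lowest villin-PPARD library was at more than 3 times the highest wild-type library. The class I heavy chain genes H2-K1 and H2-Q4 were 5.91-fold and 6.11-fold higher, the peptide transporter gene Tap1 6.201-fold, the immunoproteasome gene Psmb8 19.2-fold and Nlrc5, the activator of class I genes, 44.01-fold. In all, 25 of 28 class I presentation genes rose and 0 fell (median 2.06). For class II the counts were 3 of 13 (23.1%, beside 17.9% of all genes) and 0. The class II activator gene Ciita, the invariant chain gene Cd74 and the heavy chain gene H2-Aa were at log2 differences of −0.52, −0.15 and −0.19, none past the test, while the 3 that rose, including the protease gene Ctss (2.91-fold), act in lysosomes. Among genes that restrain T cells, Cd274 (PD-L1) was 2.66-fold higher, Vtcn1 (B7-H4) 4.84-fold and Lgals9 (galectin 9) 3.08-fold. Ido1, which breaks down tryptophan, measured 0.519, 0.05303, 0.0424, 0.625 and 0.08399 CPM in wild-type libraries and 13.6, 8.28, 9.31, 13.96 and 19.4 CPM in villin-PPARD libraries. The wild-type libraries hold only 1 to 12 counts each, so its 45.4-fold rise is imprecise (log2 difference 5.50 ± 0.73 SE). Over the checkpoint and tryptophan list 6 of 21 rose and 1 fell.

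Among cytokine receptors of epithelia, Il22ra1 and Osmr rose and Lifr and Il6st fell. Il22ra1, the epithelial chain of the interleukin-22 receptor, measured 1.21, 0.689, 0.339, 0.834 and 0.588 CPM in wild-type libraries and 8.89, 3.78, 5.301, 7.16 and 7.26 CPM in villin-PPARD libraries. The lowest villin-PPARD library was at more than 3 times the highest wild-type library (log2 difference 3.11 ± 0.33 SE, adjusted p = 2.918e-08). Osmr, the receptor chain for oncostatin M, measured 2.16, 3.77, 3.65, 4.53 and 3.19 CPM in wild-type libraries and 13.6, 11.6, 12.9, 16.8 and 13.2 CPM in villin-PPARD libraries. Lif, a cytokine of the interleukin-6 family, measured 1.82, 1.43, 1.95, 1.93 and 2.44 CPM in wild-type libraries and 11.5, 9.41, 6.37, 8.65 and 9.08 CPM in villin-PPARD libraries. Neither gene's groups overlapped, with rises of 3.94-fold and 4.73-fold. Lifr, the receptor chain for Lif, fell 1.72-fold, and Stat3, the transcription factor these receptors activate, rose 1.41-fold. Il6st, the signalling chain that Osmr and Lifr share, was 1.18-fold lower (166 to 141 CPM) without overlap, a call lost in 13 of 21 alternatives. Il11, another member of the family, and Il1rn, which blocks interleukin-1, were at log2 differences of 0.28 and 0.84 and did not pass the test. The interleukin-1, interleukin-6 and STAT3 list had 10 of 26 members higher and 3 lower.

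In the TNF and NF-kB list 20 of 35 rose and 3 fell (median 0.46). The TNF receptor genes Tnfrsf1b and Tnfrsf1a were 2.42-fold and 1.73-fold higher, the subunit gene Nfkb2 1.75-fold, and the feedback inhibitors Nfkbia and Tnfaip3 1.51-fold and 1.97-fold. Fas, a death receptor gene, fell 1.598-fold. Among genes that carry out cell death, Mlkl, the pore former of necroptosis, measured 16.2, 9.33, 10.4, 14.2 and 11.2 CPM in wild-type libraries and 60.1, 45.8, 42.5, 56.3 and 57.1 CPM in villin-PPARD libraries, and its groups did not overlap. Gsdmd, the pore former of pyroptosis, was 2.61-fold higher. Gsdma2, another gasdermin gene, fell 1.37-fold. The list of gasdermin and cell death genes had 12 of 24 higher and 3 lower.

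Of 29 antimicrobial, oxidase and mucosal defence genes 8 rose and 2 fell. Duox1, which like Duox2 makes hydrogen peroxide at the cell surface, was 12.8-fold higher, with its mean going from 0.867 to 11.1 CPM, and the calcium-binding alarmin gene S100a11 2.06-fold. Duox2 itself measured 171, 57.00, 56.04, 89.05 and 93.6 CPM in wild-type libraries and 1116, 721, 656, 808 and 959.8 CPM in villin-PPARD libraries. The highest wild-type value, in replicate 1, was still under the lowest villin-PPARD value by more than 3-fold. The antimicrobial genes Reg3g and Lcn2 and the nitric oxide synthase gene Nos2 did not pass the test, and Lcn2 and Nos2 had 2 counts or fewer in every library. Among chemokine genes 4 of 20 rose and 0 fell. Cxcl16, a membrane-bound chemokine, went from 36.03 ± 7.08 to 102 ± 12.8 CPM (SD, n = 5). Cxcl9 and Cxcl10, which recruit T cells and are interferon targets in many cells, did not pass the test, and no library held more than 22 and 8 counts of them.

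Of 21 complement genes 5 rose (23.8%, beside 17.9% of all genes) and 4 fell (beside 16.2%). C4b, a component of the classical pathway that shares reads with the near-identical C4a, went from 3.75 ± 1.63 to 14.02 ± 1.896 CPM (SD, n = 5), and Cfb, a component of the alternative pathway, from 0.191 ± 0.06998 to 1.98 ± 0.642 CPM. C3, on which both pathways converge, was at a log2 difference of −0.23 and did not pass the test. Of the membrane regulators that protect host cells, Cd55 was 2.17-fold higher, while Cd59a and Cd46 were 2.200-fold and 2.19-fold lower. Over the list the first library group gave a median of 0.65 and the second one of −0.51.

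Genes of the receptor's own pathway did not move one way. Pparg, the family member best known from fat cells, measured 89.5, 47.99, 44.4, 83.7 and 87.3 CPM in wild-type libraries and 122, 99.6, 98.1, 124 and 129 CPM in villin-PPARD libraries. The highest wild-type library, replicate 1, lay just below the lowest villin-PPARD library, replicate 3, and the log2 difference was 0.70 ± 0.20 (SE, adjusted p = 0.006717). Ppara, the member best known from liver, measured 4.24, 3.66, 3.61, 4.74 and 4.96 CPM in wild-type libraries and 2.02, 2.34, 2.18, 2.28 and 2.31 CPM in villin-PPARD libraries, and all villin-PPARD libraries lay below all wild-type libraries (1.89-fold lower on average). The partner receptor gene Rxra was at a log2 difference of 0.19 and did not pass the test. Of the coactivator genes, Ncoa3 rose by 0.58 on the log2 scale and Ppargc1a and Ppargc1b fell by 0.75 and 0.50. Of 35 tested PPAR target and fatty acid oxidation genes 7 rose and 8 fell, beside 17.9% and 16.2% of all genes tested. Within the second library group 14 fell. Vnn1, a pantetheinase gene known as a PPAR target, had the widest rise of the list, at 4.41, 5.36, 5.51, 4.12 and 4.37 CPM in wild-type libraries and 65.4, 39.8, 49.05, 86.1 and 64.7 CPM in villin-PPARD libraries, 12.8-fold higher without overlap. Fabp4, a fatty acid carrier best known from fat cells and named here after its values were seen, went from a mean of 22.7 to 54.6 CPM (log2 difference 1.27, adjusted p = 0.009746). Ehhadh, of peroxisomal oxidation, Slc25a20, the carnitine carrier, and Fabp5, which carries fatty acids to PPARD in some cells, were 1.56-fold, 1.43-fold and 1.48-fold higher. Cd36, a fatty acid uptake receptor, measured 84.9, 90.2, 85.9, 87.8 and 64.7 CPM in wild-type libraries and 25.8, 36.1, 54.3, 37.5 and 46.3 CPM in villin-PPARD libraries, and was 2.07-fold lower. Its villin-PPARD libraries all lay below its wild-type libraries. The uptake gene Slc27a2 and the lipid droplet gene Plin5 were 2.97-fold and 3.03-fold lower, at means under 4 CPM. Cpt1a, the entry step of mitochondrial oxidation, and the droplet coat gene Plin2, both known PPAR targets, were at 0.24 and 0.30 and did not pass the test.

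Of 26 fatty acid and triglyceride synthesis genes 6 rose (23.1%, beside 17.9% of all genes) and 7 fell (26.9%, beside 16.2%). Without wild-type replicate 2, villin-PPARD replicate 1 or villin-PPARD replicate 2, 4 fell. Lpl, lipoprotein lipase, measured 286, 347, 346, 294 and 238 CPM in wild-type libraries and 92.97, 139.6, 146, 99.3 and 117 CPM in villin-PPARD libraries, and every villin-PPARD library lay below every wild-type library (log2 difference −1.35 ± 0.17 SE, adjusted p = 4.528e-07). The lipase genes Mgll, Lipe and Pnpla3 were 1.52-fold, 1.47-fold and 3.07-fold lower. Agpat2 and Dgat2, of triglyceride synthesis, were 1.603-fold and 1.496-fold higher, and the lipogenic transcription factor gene Srebf1 and the citrate enzyme gene Acly 1.36-fold and 1.29-fold. Fasn, fatty acid synthase, was at a log2 difference of 0.09 and did not pass the test. In the cholesterol list 4 of 25 rose and 3 fell. Its sterol exporter gene Abcg1 was 1.78-fold higher. Among apolipoprotein genes Apoa4 was 2.07-fold lower, whereas Apol9a and Apol9b, which interferon induces, were 30.1-fold and 162-fold higher. Of the prostaglandin genes, the cyclooxygenases Ptgs1 and Ptgs2 did not pass the test, and the prostaglandin E receptor genes Ptger4 and Ptger3 were 1.796-fold higher and 1.77-fold lower. Pla2g1b, a secreted phospholipase, measured 10197, 19212, 18442, 20774 and 22362 CPM in wild-type libraries and 6324, 9078, 8417, 6121 and 7000 CPM in villin-PPARD libraries, with wild-type replicate 1 the lowest of its group and still above all villin-PPARD libraries.

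Parietal and chief cell genes fell by amounts that were mostly under 2-fold. Of 25 parietal genes 15 fell and 1 rose, beside 16.2% and 17.9% of all genes. Kcnj16, a potassium channel subunit, measured 392, 329, 308, 348 and 285 CPM in wild-type libraries and 138, 146, 180.5, 145 and 196 CPM in villin-PPARD libraries. No villin-PPARD library reached the lowest wild-type library, and the log2 difference was −1.05 ± 0.17 (SE, adjusted p = 3.257e-05). The receptor genes for histamine, Hrh2, and gastrin, Cckbr, were 1.48-fold and 1.702-fold lower, the chloride-bicarbonate exchanger gene Slc26a7 2.17-fold and the potassium channel gene Kcnq1 1.400-fold. Car2, a carbonic anhydrase that supplies protons to the pump and is also made by surface cells, went the other way at 1772, 1266, 1219, 1593 and 1589 CPM in wild-type libraries and 3065, 2605, 2661, 2862 and 2739 CPM in villin-PPARD libraries, without overlap. Of 21 chief cell genes 10 fell and 1 rose. Bhlha15 (Mist1), which drives chief cell maturation, measured 17.9, 38.6, 37.1, 36.1 and 39.5 CPM in wild-type libraries and 13.6, 24.3, 17.6, 15.6 and 17.3 CPM in villin-PPARD libraries. Wild-type replicate 1 was far below the other wild-type libraries and within the villin-PPARD range. The fall was 1.91-fold. Its call was lost without villin-PPARD replicate 1 (edgeR adjusted p = 0.05766), with no filter on low counts (0.06183) and within the first library group (0.08012). Derl3, of protein quality control in the endoplasmic reticulum, and the secreted ribonuclease gene Rnase1 were 2.31-fold and 1.87-fold lower. The secretory regulator Xbp1 and the pepsinogen gene Pga5 were at −0.15 and −0.06 and did not pass the test. Within the first library group alone only 4 of the 10 chief cell genes that fell were called, and without wild-type replicate 3 or villin-PPARD replicate 1 only 6.

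Most mucous neck and pit cell genes did not pass the test. The neck cell genes Muc6 and Tff2 were at log2 differences of 0.68 and 0.16, and the pit cell genes Gkn1, Gkn2 and Tff1, which code for secreted proteins of the surface, at −0.35, −0.09 and 0.11, none past the test. In the neck and metaplasia list 4 of 21 rose and 1 fell. Bpifb1, a secreted lipid-binding protein, and Wfdc2, a protease inhibitor known from metaplastic glands, were 2.38-fold and 1.83-fold higher, and Spink4, a peptide of mucous cells, measured 25.3, 19.6, 20.9, 25.4 and 27.4 CPM in wild-type libraries and 8.38, 7.86, 6.95, 6.32 and 5.83 CPM in villin-PPARD libraries. The 2 groups of Spink4 lay apart, with villin-PPARD 3.36-fold lower. Of 19 pit cell genes 4 rose (21.1%) and 0 fell. Fits within the 10-week libraries, with a replicate block, or within the second library group called 7, 9 and 10 of the neck and metaplasia genes higher in place of 4.

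Of 29 brush border, absorptive and goblet genes of the intestine 8 rose (27.6%, beside 17.9% of all genes) and 3 fell. Without villin-PPARD replicate 4 the number that rose was 5, a share near that of all genes. Muc13, a membrane mucin of the intestine, measured 12.4, 7.95, 7.25, 7.76 and 6.72 CPM in wild-type libraries and 31.9, 27.1, 31.7, 28.9 and 32.5 CPM in villin-PPARD libraries, a 3.59-fold rise with no overlap. Lgals4, a lectin of the gut epithelium, was 1.77-fold higher, while the goblet cell mucin gene Muc2 and the enterocyte gene Fabp2 did not pass the test. Cdx2, the master factor of intestinal fate, had at most 10 counts in any library, and Cdh17, an intestinal cadherin, at most 4. Of the transcription factors that set stomach and intestine identity 12 of 23 rose and 1 fell. Pdx1, which marks antrum and duodenum, measured 8.53, 4.19, 4.79, 6.15 and 5.88 CPM in wild-type libraries and 15.9, 10.7, 10.02, 14.4 and 12.9 CPM in villin-PPARD libraries. The groups did not overlap and the rise was 2.15-fold. Klf4, Hnf4a and Gata4 were 1.79-fold, 1.58-fold and 1.32-fold higher. Sox2, a factor of stomach identity, was 1.401-fold lower, a call lost in 5 of 21 alternatives. Its adjusted p was 0.05026 and 0.3133 in the first and second library group, 0.05744 with library sizes alone, and 0.06464 and 0.07216 without wild-type replicate 3 and villin-PPARD replicate 1.

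Of 24 hormone cell genes 10 fell and 0 rose, the median being −0.70. Ghrl, the hunger hormone ghrelin, measured 484, 639, 624, 622 and 701 CPM in wild-type libraries and 256, 319, 468, 301 and 320.2 CPM in villin-PPARD libraries. Every villin-PPARD library was below every wild-type library, narrowly so for replicate 3. Its fall was 1.84-fold (adjusted p = 0.02233). The call was lost without villin-PPARD replicate 1 (edgeR adjusted p = 0.06117), with library sizes alone (0.05308) and with no filter on low counts (0.07092). The endocrine transcription factor gene Nkx2-2 was 2.83-fold lower and the vesicle protein gene Syp 1.63-fold lower. The granin gene Chga and Hdc, which makes histamine in enterochromaffin-like cells, were at −0.40 and −0.39 and did not pass the test.

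Growth factor genes of the EGF family rose at 9 of 15 members with 0 lower. Beyond the ligand and receptor genes with the widest rises, Btc and Tgfa, which bind the EGF receptor, were 1.71-fold and 1.47-fold higher and the receptor gene Erbb2 1.31-fold. Egfr, the receptor itself, measured 69.3, 46.6, 48.1, 60.4 and 60.05 CPM in wild-type libraries and 153, 107, 115, 153 and 152 CPM in villin-PPARD libraries, without overlap. Of the AP-1 and immediate early genes 12 of 27 rose and 3 fell. The classic members Fos, Jun and Egr1, which respond within minutes to growth factors and to handling of tissue, did not pass the test, and Fosl1, a slower member, was 3.17-fold higher. Within the first library group, or without villin-PPARD replicate 4, only 7 of the 12 were called.

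Over the stem cell and Wnt list 5 of 34 rose (14.7%, beside 17.9% of all genes) and 3 fell (8.82%, beside 16.2%). Within the first library group 2 rose, and with the 10-week libraries alone 6 fell. Fzd10, a Wnt receptor, measured 4.804, 3.29, 3.097, 3.96 and 3.95 CPM in wild-type libraries and 0.315, 0.7196, 0.891, 0.658 and 0.4403 CPM in villin-PPARD libraries, 6.14-fold lower with no overlap. Fzd5 was 1.68-fold higher, Lgr4, which strengthens Wnt signals, 1.42-fold (a call lost in the first library group, adjusted p = 0.05826) and the ligand gene Wnt11 1.55-fold, while the Wnt target genes Axin2 and Lgr5 were at −0.20 and −0.34 and did not pass the test. Over the hedgehog and BMP list 3 of 29 rose (10.3%) and 4 fell (13.8%). The BMP ligand gene Bmp2 was 1.63-fold higher and the receptor gene Bmpr1b 1.79-fold lower.

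Of 32 mitosis genes 20 rose, 0 fell and all 32 had a positive log2 difference (median 0.47). Ube2c, which triggers exit from mitosis, the checkpoint kinase gene Bub1b and the spindle motor gene Kif20a were 1.801-fold, 1.65-fold and 1.51-fold higher. Within the first library group 7 were called and the list median was 0.28, beside 0.76 within the second. Of 39 replication and recombination genes 9 rose (23.1%, beside 17.9% of all genes) and 1 fell (2.56%, beside 16.2%). Gins1, part of the replication helicase, measured 3.33, 3.34, 3.01, 3.18 and 3.53 CPM in wild-type libraries and 9.64, 9.41, 7.97, 11.5 and 10.9 CPM in villin-PPARD libraries, a 3.02-fold rise without overlap, whereas the helicase gene Mcm2 and the clamp gene Pcna were at −0.04 and 0.11 and did not pass the test.

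Tight junction genes rose at 8 of 18 members and fell at 2. Cldn4, a claudin of surface epithelia, measured 1.298, 2.07, 1.99, 2.66 and 3.11 CPM in wild-type libraries and 9.39, 4.92, 5.26, 14.2 and 7.98 CPM in villin-PPARD libraries. Villin-PPARD replicate 4 was the highest, and the lowest villin-PPARD library lay above the highest wild-type library. Cldn23 was 4.31-fold higher and Cldn8, another claudin gene, 2.79-fold lower. Genes of epithelial attachment and invasion rose at 15 of 29 members. The integrin genes Itga3 and Itgb6 were 2.12-fold and 1.97-fold higher and Plaur, the urokinase receptor gene, 3.11-fold. Of the keratin and cornified genes 6 of 24 rose (25.0%, beside 17.9% of all genes) and 3 fell (12.5%, beside 16.2%), at a median of −0.22. The simple-epithelium keratin genes Krt8 and Krt18 were 1.53-fold and 1.51-fold higher, Krt80 2.58-fold and Sprr2a3, a cornified-envelope gene with near-identical copies, 2.299-fold. Those that fell were the squamous keratin genes Krt4, Krt14 and Krt17, at means of 0.434 to 0.0939 CPM, 0.2602 to 0.00878 CPM and 0.544 to 0.0412 CPM in wild type and villin-PPARD, and 0 fell without villin-PPARD replicate 1, 2 or 5. Fits on the 10-week libraries alone gave a list median of 0.17.

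Mitochondrial genes fell in both genomes. mt-Co1, a cytochrome oxidase subunit encoded in the mitochondrion, measured 28986, 43746, 40260, 29845 and 19660 CPM in wild-type libraries and 6926, 9114, 18208, 14380 and 14200 CPM in villin-PPARD libraries, and the highest villin-PPARD library lay just below the lowest wild-type library. Of 14 mitochondrially encoded genes 11 fell (median −1.67), and nuclear copies of near-identical sequence make their split of reads uncertain. Of 52 nuclear genes of complex I and ATP synthase 47 fell and 0 rose, by a smaller median of −0.43. Ndufa1, a complex I subunit, measured 50.7, 49.2, 47.9, 50.2 and 55.9 CPM in wild-type libraries and 30.8, 30.8, 24.5, 28.7 and 27.9 CPM in villin-PPARD libraries, without overlap. Atp5b, the catalytic subunit of ATP synthase, was an exception at a log2 difference of −0.05 that did not pass the test. The regulators Esrra and Tfam, which control these genes in many tissues, were at −0.09 and −0.17 and did not pass either. Oxct1, which lets cells burn ketone bodies, and Cox4i1, of cytochrome oxidase, were 2.08-fold and 1.77-fold lower. Of the glycolysis genes, Hk2 and Pfkp rose 2.18-fold and 1.96-fold, and Pfkm and Ldhb, the forms of oxidative tissue, fell 1.597-fold and 1.86-fold. Over that list 6 of 28 rose and 6 fell (21.4% each, beside 17.9% and 16.2% of all genes).

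Of the aminoacyl-tRNA synthetase and amino acid stress genes 20 of 33 rose and 0 fell, whereas of 40 ribosomal protein genes 0 rose and 1 fell, or 11 within the second library group. Wars, the tryptophan enzyme and a known interferon target, measured 128, 109.8, 109, 122 and 133 CPM in wild-type libraries and 268, 245, 206, 237 and 248 CPM in villin-PPARD libraries, and its groups did not overlap. The cysteine and alanine enzyme genes Cars and Aars were 2.08-fold and 1.81-fold higher and Atf4, the transcription factor of amino acid stress, 1.63-fold. Of the xenobiotic genes 12 of 37 rose and 4 fell. The glutathione transferase genes Gsto1 and Gstp1 were 1.75-fold and 1.64-fold higher and the cytochrome gene Cyp2b10 3.08-fold lower, while Nqo1, a standard target of the oxidative stress factor NRF2, was at 0.04 and did not pass the test. Genes that build mucin sugars rose at 12 of 31 members and fell at 4. The chain-extending enzyme gene B3gnt7 was 2.05-fold higher, the blood-group fucosyltransferase gene Fut2 1.55-fold higher and B4galnt2 2.05-fold lower, and A4gnt, which makes the sugar typical of neck cell mucin, was at −0.02 and did not pass the test.

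Of 30 water and ion transport genes 9 fell and 4 rose. Scnn1b, a subunit of the epithelial sodium channel, measured 12.1, 12.5, 10.1, 16.6 and 20.2 CPM in wild-type libraries and 2.52, 3.54, 3.65, 5.36 and 2.97 CPM in villin-PPARD libraries, 3.88-fold lower without overlap, and its partner Scnn1a was 1.71-fold lower. The sodium-proton exchanger gene Slc9a3 and the water channel gene Aqp3 were 1.85-fold and 1.51-fold higher. The iron reductase gene Cybrd1 fell 3.54-fold, with wild-type replicate 1 at 199 CPM and the other 4 wild-type libraries between 64.8 and 72.4 CPM.

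**Figure D3:**
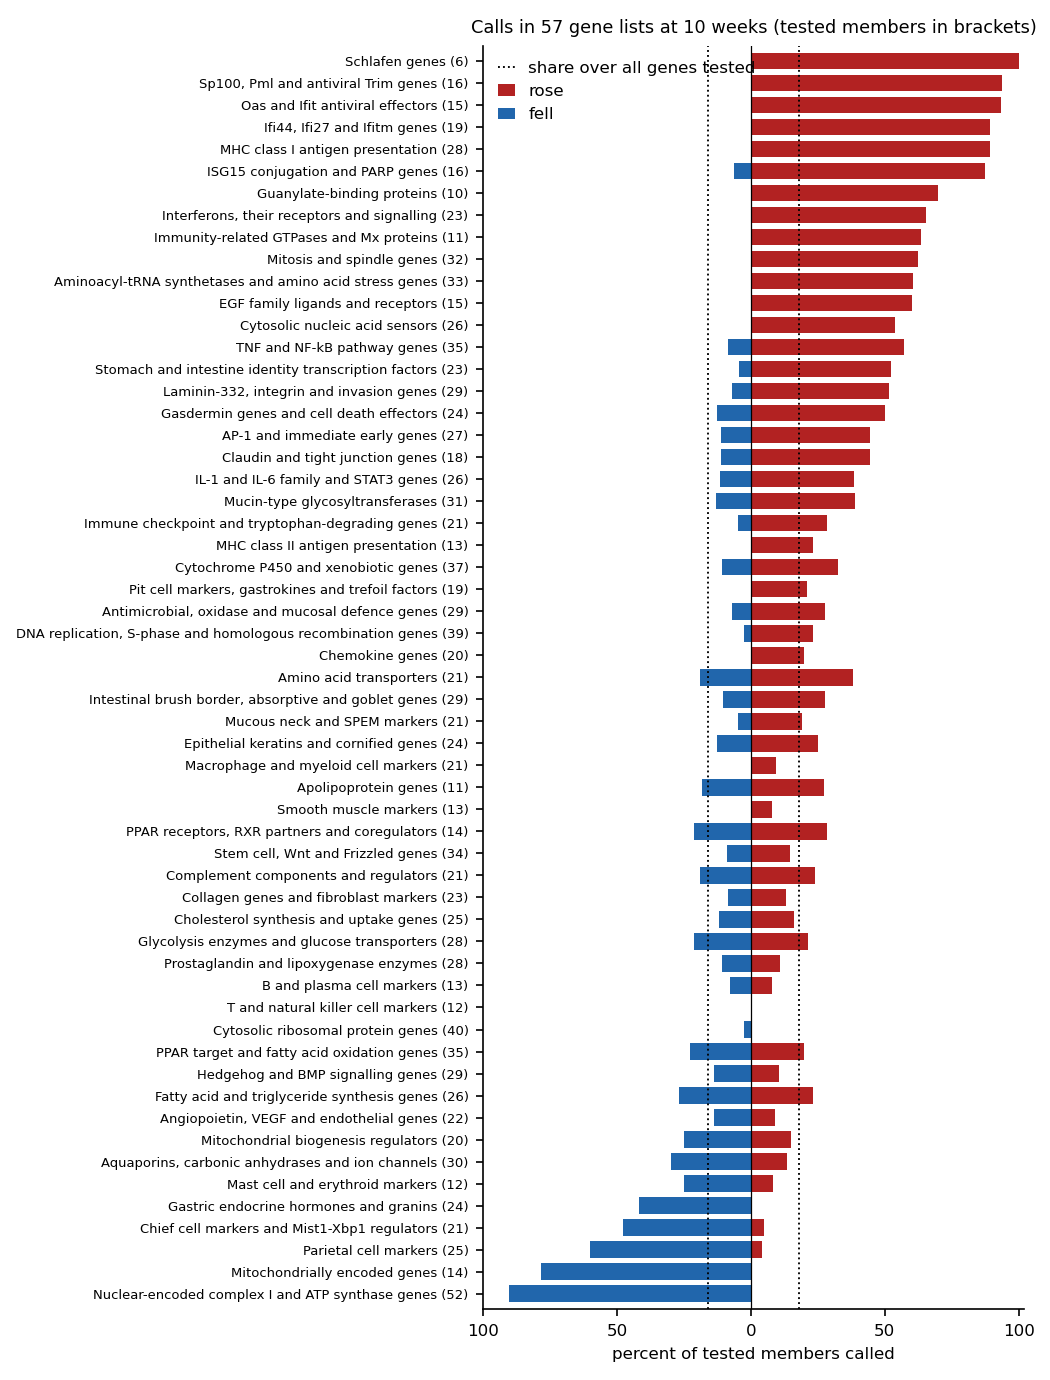
Percent of the tested members of each of 57 gene lists that were called higher (red, to the right) or lower (blue, to the left) at 10 weeks, with the number tested in brackets and dotted lines at the shares over all genes tested (17.9% higher and 16.2% lower). Several interferon-induced families reach past 80% on the higher side, and the respiratory chain lists past 75% on the lower side.

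Of the summed markers of other cell types in the scrape, some overlapped between genotypes and some were lower in villin-PPARD. The sum of macrophage and myeloid markers was higher, although only 2 of its 21 tested members rose. Summed markers of fibroblasts lay between 71.7 and 243.5 CPM in wild-type and between 167 and 326 CPM in villin-PPARD libraries, and those of smooth muscle between 12.1 and 44.5 and between 11.9 and 54.2 CPM. A fixed set of 4 leukocyte markers summed to 6.88 to 16.4 and 10.7 to 14.7 CPM, and endothelial markers had medians of 13.2 and 12.03 CPM. All 4 sums overlapped between genotypes, and wild-type replicate 1 had the lowest fibroblast, endothelial and leukocyte sum of all 10 libraries. Squamous markers of the forestomach, the neighbouring region, summed to 1.99 to 3.82 CPM in wild-type and 1.27 to 1.87 CPM in villin-PPARD libraries, and haemoglobin genes to 36.8 to 66.9 and 19.2 to 35.9 CPM. These 2 sums did not overlap and were lower in villin-PPARD. Trp63, which defines squamous basal cells, had 0 counts in every wild-type library and at most 1 in any villin-PPARD library. Pancreas markers were at 1.01 CPM or less in every library. The longer list of macrophage and myeloid markers summed to 33.5 to 82.7 CPM in wild-type and 84.97 to 100.4 CPM in villin-PPARD libraries, all of them above every wild-type library. Its members that rose were Mpeg1, a pore-forming protein of phagocytes, from 10.4 to 38.2 CPM, and Cd68, a lysosomal protein of macrophages, from 3.63 to 6.47 CPM. Much of the difference in the sum lies in Mpeg1. The median log2 difference of the myeloid list was 0.119, with 0.465 in the first library group and −0.288 in the second. Of the myeloid, T and natural killer, and B cell markers 2 of 21, 0 of 12 and 1 of 13 rose. These shares are 9.52%, 0.00% and 7.69%, beside 17.9% of all genes. The part of these cells in the interferon, complement and attachment gene results was not tested.

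**Figure D4:**
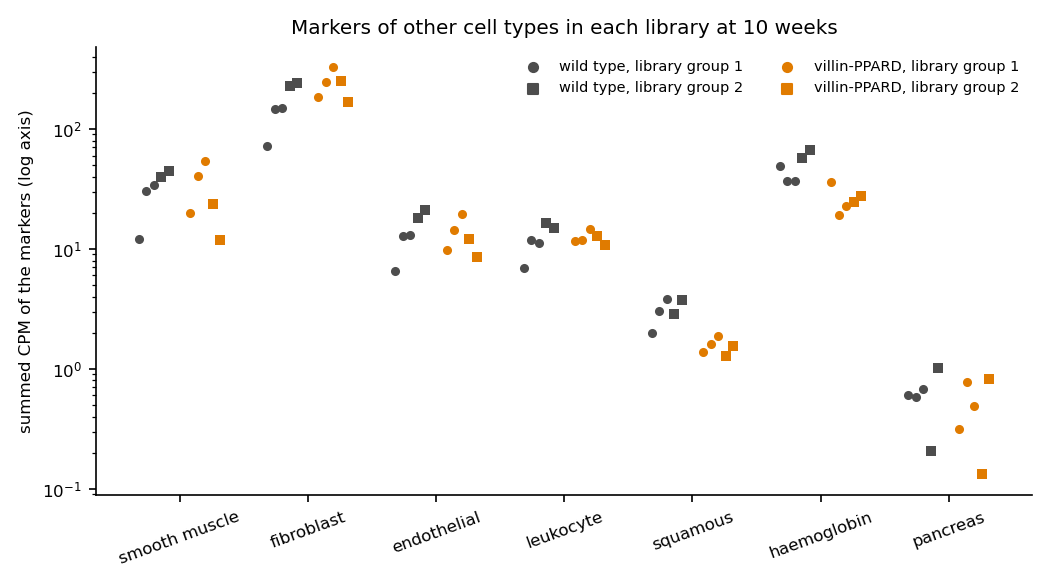
Summed CPM of fixed marker genes of 7 other cell types in each library at 10 weeks, on a log axis, for 5 wild-type and 5 villin-PPARD mice. Squamous and haemoglobin sums do not overlap between genotypes, and the other sums do.

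The median log2 difference had the same sign in both library groups in 42 of 57 lists, among them the 9 antiviral and antigen-presentation lists, and opposite signs in 15. Of the 15, 7 hold markers of stromal, blood or immune cells. Medians in the first and second group were 5.70 and 5.15 for Schlafen genes, 2.12 and 2.02 for MHC class I and −1.94 and −1.26 for mitochondrially encoded genes. For collagen and fibroblast genes they were 0.83 and −0.30, for smooth muscle genes 0.72 and −1.08 and for vascular genes 0.31 and −0.73. Smaller changes of sign were seen for ribosomal protein genes (0.14 and −0.17), PPAR target genes (0.06 and −0.19) and apolipoprotein genes (0.30 and −0.14). Chief cell genes (−0.29 and −0.72) and mitosis genes (0.28 and 0.76) kept their sign at unequal sizes. A test of whether the genotype difference itself differed between library groups, by edgeR on 13913 genes, called 0 genes (0.00%), with 1163 (8.36%) at an unadjusted p under 0.05. Without villin-PPARD replicate 3 it called 124 genes and without wild-type replicate 1 it called 11. Tek, which encodes an angiopoietin receptor of blood vessels, measured 2.64, 3.500, 4.28, 4.12 and 3.86 CPM in wild-type libraries and 70.5, 42.4, 45.1, 67.04 and 52.4 CPM in villin-PPARD libraries. All villin-PPARD libraries were above 40 CPM and all wild-type libraries below 5 CPM, in both library groups. Of 22 vascular genes 2 rose (9.09%, beside 17.9% of all genes) and 3 fell (13.6%, beside 16.2%). Sox17, a transcription factor of endothelium, was 3.93-fold higher, while the defining endothelial genes Pecam1 and Cdh5 were at log2 differences of −0.18 and 0.15 and did not pass the test.

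**Figure D5:**
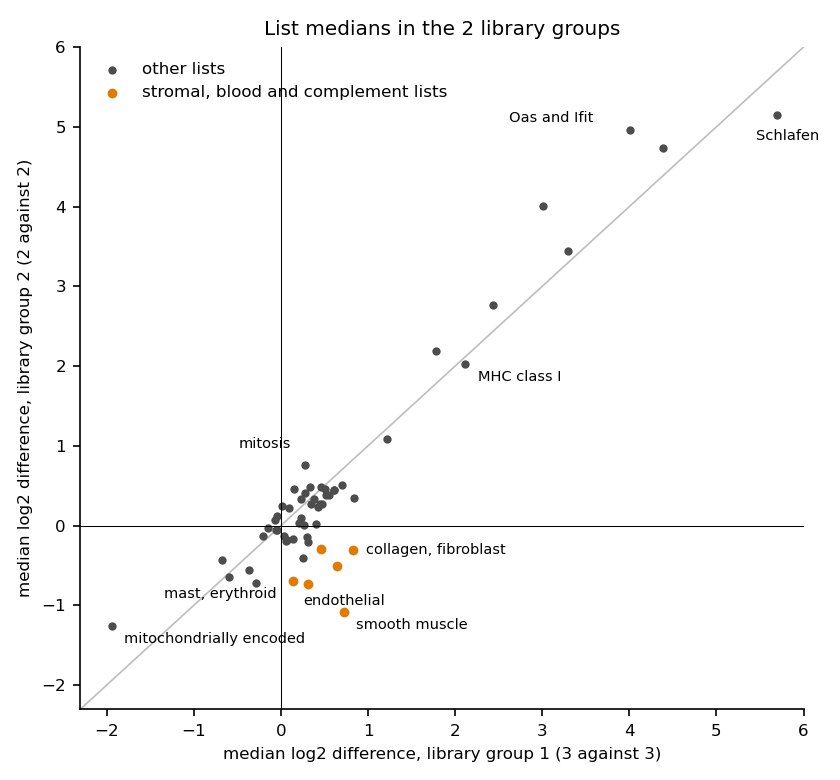
Median log2 difference of each of the 57 lists in library group 2 (2 against 2 mice) against that in library group 1 (3 against 3 mice) at 10 weeks, with the line of equal values in grey. Orange lists of stromal, blood and complement genes lie right of 0 and below 0, and interferon lists lie near the line.

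The genotype difference at 10 weeks was set beside those at the later ages. By a test of the change in the difference, 1 gene differed between 25 and 10 weeks (0.00632%; 1810 genes, 11.4%, at an unadjusted p under 0.05) and 5748 (36.4%) between 55 and 10 weeks, with 2905 (18.4%) higher and 2843 (18.0%) lower in the difference. Without wild-type replicate 5 the first of these counts was 11, and without villin-PPARD replicate 3 it was 3. All 55-week libraries carry the second library group's name and no 25-week library does, so age and library group cannot be fully told apart. Of genes called higher at 10 weeks the difference was larger at 55 weeks for 341 and smaller for 891. Of those called lower the fall was larger for 562 and smaller for 506. In these counts and those by list below, smaller includes genes whose difference changed sign, which were not counted apart. For the ages, 9 lists of antiviral and antigen-presentation genes with 146 tested members were taken, not the 142 members of the 16-fold count. The difference changed for 68 of the 146 (46.6%, beside 36.4% of all genes). Of the 118 members that rose at 10 weeks the rise was smaller at 55 weeks for 42 and larger for 8. All such counts pick genes by their 10-week calls, and the change subtracts the same 10-week estimates. That selection by itself favours smaller differences at 55 weeks, and its part in these counts was not tested. Slfn4 was at log2 differences of 7.78, 8.42 and 4.91 at 10, 25 and 55 weeks (edgeR adjusted p of the change to 55 weeks = 1.677e-06), Stat2 at 2.88, 2.90 and 1.87 (5.417e-05) and Ifnlr1 at 0.60, 0.60 and −0.09 (0.001736). Of the 15 parietal genes that fell at 10 weeks the fall was larger at 55 weeks for 13 and smaller for 1. Lipid genes were less uniform: of the 8 PPAR target genes that fell the fall was larger for 4 and smaller for 1, and of the 7 synthesis genes larger for 2 and smaller for 2. Examples of larger falls are Kcnj16 at −1.05, −1.26 and −4.67 (adjusted p = 1.164e-11), Lpl at −1.35, −1.41 and −4.13 (5.570e-10) and Cd36 at −1.05, −0.97 and −4.27 (1.037e-09). Some genes had opposite signs at the first and the last age, and examples follow. B3gnt7 was at 1.03, 0.74 and −0.56 (1.272e-08), Pstpip1, an adaptor protein of the cytoskeleton, at 1.68, 1.11 and −2.03 (1.777e-12) and Cybrd1 at −1.82, −1.89 and 0.86 (0.002606). Cldn2, a pore-forming claudin, was small at 10 weeks and wider later, at 0.60, 3.04 and 6.76 (2.730e-08). Muc13 was at 1.84, 1.61 and 6.17 (7.967e-08).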

How the data were processed

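RNA of gastric corpus epithelium was sequenced on a HiSeq 4000 with a TruSeq v2 kit that does not mark the strand, per the labels' protocols. The authors deposited 1 table of read counts per gene symbol for all 28 libraries. Per the submitters' processing notes, TopHat2 2.0.14, HTSeq 0.6.1, DESeq2 and build mm10 were used, and no annotation or counting setting is given in the sources used here. Reads carry no molecular identifiers, so limits from counts cover counting error only. Counts of overlapping or antisense genes cannot be told apart.

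All 28 libraries entered 1 edgeR 4.0.16 quasi-likelihood fit (R 4.3.3) with 6 genotype-by-age means, TMM scaling, filterByExpr and robust dispersions. Wild type was the baseline, p-values were adjusted by Benjamini-Hochberg over 15812 of 49492 symbols, and SE is the log2 difference over the square root of F. Fits within 10 weeks, with library group or a replicate block, other scalings, DESeq2 1.42.0 and limma 3.58.1 voom were alternatives. Single measures were tested by exact permutation (smallest p 0.00794). On simulated counts for 15459 genes the 10-week test recovered 70.1% of 2-fold changes with 3.50% false calls. The library group test recovered 20.9% of 2-fold changes over 14432 genes. In each simulation 67 genes changed 2-fold, while 34.0% of genes were called in the real comparison. The simulated counts held no differences between library groups otherwise and no near-alike pair of libraries. These rates may therefore not hold for the real counts.

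The comparison and the 57 gene lists were chosen with earlier results of these data known. Named genes were Ppard, Vil1, list anchors, up to 4 called members per list and direction with the lowest adjusted p, the 30 widest changes per direction without overlap (mean of at least 1 CPM) and the 10 widest with a mean of at least 200 CPM, and up to 5 genes per direction for each interaction test. Values of a few such genes are left out. Positions come from GENCODE M21 and promoters from RefSeq, both on GRCm38, the build named mm10 in the notes.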

Additional observations from a re-analysis of the deposited data

Results flagged for a closer look

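Groups of 5 libraries were checked for the genes named above and the 5 library measures. In 27 of 456 such groups 1 library lay apart from the other 4 by more than Dixon's critical value, and chance alone gives about 1 in 20. Wild-type replicate 1 was the highest of its group for Oas3 (12.2 CPM, next 4.72), Isg15 (8.87 CPM, next 3.27), Ifit1 (9.78 CPM, next 2.28), Usp18 (9.95 CPM, next 4.199), Apol9a (9.74 CPM, next 4.08), Cybrd1 (199 CPM, next 72.4), Rnf213 (167 CPM, next 103), Helz2 (137 CPM, next 99.1), Ncoa3 (75.8 CPM, next 58.6), Irf8 (6.28 CPM, next 4.96), Ddx58 (10.1 CPM, next 6.79), Ifih1 (34.2 CPM, next 18.5), Dhx58 (10.3 CPM, next 5.41) and Muc13 (12.4 CPM, next 7.95). Villin-PPARD replicate 1 was the highest of its group for Ncoa3 (105 CPM, next 90.7). Villin-PPARD replicate 2 was the highest of its group for Derl3 (13.8 CPM, next 7.93). Villin-PPARD replicate 3 was the lowest of its group for Rnf213 (1134 CPM, next 1601). Villin-PPARD replicate 4 was the highest of its group for Krt14 (0.0439 CPM, next 0), which is 1 count against 0. Villin-PPARD replicate 5 was the highest of its group for Muc6 (1660 CPM, next 1110) and Fosl1 (6.77 CPM, next 5.43). Wild-type replicate 1 was the lowest of its group for Bhlha15 (17.9 CPM, next 36.1). Wild-type replicate 2 was the highest of its group for Cdh17 (0.212 CPM, next 0.0424), which is 4 counts against 1. Wild-type replicate 3 was the lowest of its group for Cd274 (1.103 CPM, next 1.34). Wild-type replicate 4 was the highest of its group for Itgb6 (74.9 CPM, next 64.8). Wild-type replicate 5 was the highest of its group for Fasn (445 CPM, next 390.3) and Gsdma2 (3370 CPM, next 2970). Wild-type replicate 5 was the lowest of its group for Cd36 (64.7 CPM, next 84.9).

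Another 9 genes were among the 10, 5 in each direction, with the lowest adjusted p for a genotype difference that changed between 10 and 55 weeks among genes called at 10 weeks. The log2 difference was higher at 55 weeks by 1.88 for Tm7sf2 (adjusted p = 3.010e-11), 2.68 for Fzd1 (adjusted p = 2.515e-13), 2.29 for Rbbp7 (adjusted p = 2.431e-13) and 2.68 for Scd2 (adjusted p = 1.164e-11). It was lower at 55 weeks, with changes of −3.89 for Hrh2 (adjusted p = 1.959e-12), −2.77 for Gsdma2 (adjusted p = 5.457e-13), −3.41 for Slc7a8 (adjusted p = 1.164e-11), −3.71 for Pstpip1 (adjusted p = 1.777e-12) and −2.72 for Igsf9 (adjusted p = 1.164e-11). These p-values are edgeR's, adjusted over all genes tested by Benjamini-Hochberg, and each mouse was measured at 1 age.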

How the results depend on the processing

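The count of 5380 genes lay between 3639 (the first library group alone) and 7228 (limma-voom) under the other settings, and 4334 to 5476 when 1 library was left out (2280 to 2828 higher, 1952 to 2805 lower). DESeq2 called 5616. With library sizes alone 61.7% of calls were higher in place of 52.5%, and 87.7% of the called genes were shared. The count of genes whose genotype difference differed between library groups was 4 with a replicate block and 0 to 124 when 1 library was left out. For 25 against 10 weeks the count was 0 with library sizes alone and 1 to 11 without 1 library, and for 55 against 10 weeks it was 5328 to 5753 without 1 library. The Ppard log2 difference was 0.51 to 0.61 without 1 library, 0.56 with a replicate block and past the test in every setting tried (adjusted p 9.802e-09 to 0.007785). Replicate numbers are shared between genotypes, but same-numbered samples correlated between −0.209 and 0.240 and only 2 of 5 matched best with their own number. Such correlations over 5 numbers cannot show whether the numbers pair mice, and the main fit treated the mice as unpaired. The replicate block called 5807 genes. The difference in mitochondrial share, −5.52 percentage points, was −6.45 to −4.68 without 1 library, −7.18 in the first library group (exact permutation p = 0.1000) and −3.02 in the second (exact permutation p = 0.3333). Groups of 3 and 2 cannot give a lower p. Cdh5 turned to −0.67 in the second library group (edgeR adjusted p = 0.02927), and the cause was not tested. Of 175 called genes named by the naming rule, 159 kept their call in every one of the 21 alternatives that tested them. The call was lost in at least 1 for 16, 9 of them only without 1 library or within 1 library group. Outside that tally, Ifngr1 and Fabp4 were called in all 21 alternatives and Ifngr2 in 14. Among the 16, Fas, Gsdma2, Bmp2, Btc and Pnpla3 lost their call only within the first library group and Erbb2 only within the second. Of the genes named as not passing, 20 passed in at least 1 alternative. Depth limits genes near 0 counts, among them interferons, Cdx2 and Lcn2.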

Other observations

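Several further wide changes were not described with the gene lists above, and whether interferon induces these genes was not tested. Nptx2, a secreted pentraxin best known from neurons, measured 0.1298, 0, 0.297, 0.261 and 0.504 CPM in wild-type libraries and 11.3 to 29.5 CPM in villin-PPARD libraries. It was near the floor in wild type and clear of it in every villin-PPARD library, with log2 differences of 6.44, 6.09 and 2.34 at 10, 25 and 55 weeks. Rnf213, a large ubiquitin ligase, and Helz2, a helicase that binds nuclear receptors including PPARs, were 14.5-fold and 6.19-fold higher. As for Oas3, Isg15 and Ifit1, wild-type replicate 1 stood above the other wild-type libraries for both, at 167 and 137 CPM. Olfr56, an olfactory receptor gene, rose from 0.0534 to 2.95 CPM in mean level, but its span on chromosome 11 (48978889 to 49135387, GRCm38) holds the whole of Ifi47, an interferon-induced GTPase gene on the same strand (49076587 to 49096974), and reads of the 2 genes may be split uncertainly.

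Among the widest falls, Edn1, the vasoconstrictor endothelin 1, measured 10.99, 10.9, 8.91, 7.66 and 7.31 CPM in wild-type libraries and 3.21, 2.82, 3.83, 3.86 and 1.98 CPM in villin-PPARD libraries, with the villin-PPARD libraries all below the wild-type ones (2.904-fold lower, edgeR adjusted p = 2.316e-06). Of 2 selenium-containing proteins, Selenop, which carries selenium between tissues, and Dio1, which activates thyroid hormone, were 1.95-fold and 2.85-fold lower. Furin, a protease that processes secreted precursors, was 1.77-fold lower and Gpr155, a lysosomal cholesterol sensor, 2.800-fold lower. Epb41l3, a protein of the membrane skeleton, was 4.28-fold lower.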
